A study of Drosophila melanogaster with 4 samples.

Results

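The pair-rule genes divide the early Drosophila embryo into segments, and their RNA was followed here in embryos near the end of embryogenesis. The set was named by gene symbol, with earlier results of these data known, and holds 9 of the 16727 genes in the count table: eve, run, odd, slp1, slp2, h and opa, which are pair-rule transcription factor genes, and sob and drm, which are relatives of odd. All 9 passed the filter on low counts, with 253 to 13522 counted read pairs per library. RNA-seq was made from whole embryos 16 to 18 h old, with 2 libraries for each of the groups H3.2-WT and H3.2-K4R. The embryos of each group lacked the native cluster of replication-dependent histone genes (deltaHisC, homozygous) and carried a transgenic array of 12 histone gene copies. In the H3.2-WT embryos (12xH3.2-WT), called control below, the transgenic histone H3.2 was wild type. In the H3.2-K4R embryos (12xH3.2-K4R), called mutant below, lysine 4 of this histone was replaced by arginine, which cannot take the methyl marks that lysine 4 carries. The variant H3.3, encoded outside that cluster, was left intact, so that the embryos still had a histone H3 with lysine 4. The comparison asks how loss of this residue from H3.2 alters the expression of developmental genes, which the title of the series ties to Polycomb repression and to target gene activity.

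Pair-rule factors are DNA-binding regulators, most of them first expressed in stripes around the blastoderm stage. Some of them read the gap gene gradients, and as a group they set the expression of segment polarity genes such as en and wg. Most of them are switched on again later, in small groups of cells unrelated to segmentation: eve and run in identified neurons of the nerve cord, eve and odd in pericardial cells around the heart, opa in the visceral muscle of the midgut, and drm and odd in the foregut, including the proventriculus. Several of these loci are classical targets of Polycomb group repression. An RNA library of a late embryo sums expression over all cells of the embryo, and where each RNA was made was not measured here.

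The libraries held 33882742 and 45509930 counted pairs in control embryos and 42661669 and 37055590 in mutant embryos (replicates 1 and 2). Mutant replicate 2 stood apart: on the first principal component of log2 CPM (counts scaled to library size), with 53.6% of the variance, it lay at 75.8, against 0.691 for mutant replicate 1 and -45.5 and -31.0 for the control replicates. For eve, h, drm and several genes of the lists, values are also given without 1 library. Nothing in the labels says that replicates came from separate egg collections, so p-values reflect how far these libraries vary, and that variation may be technical.

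The 9 genes fell into a pair of abundant RNAs and 7 RNAs of moderate level. Compared per kilobase of exon, drm, which encodes a short zinc finger protein of the odd family that acts in foregut and hindgut patterning, had a mean level of 106 CPM per kb over the 4 libraries (range 90.6 to 132), and h, which encodes a bHLH repressor that recruits the corepressor Groucho, had 96.7 (69.1 to 120). These levels stood at percentiles 94.9 and 94.4 of the 11562 tested genes. The next gene, opa, a zinc finger gene of the Zic family, was 7.64-fold lower than h, at 12.7 CPM per kb (11.6 to 13.7). Below it came odd at 10.3, eve at 9.0, slp2 at 7.47, slp1 at 6.29, sob at 4.81 and run at 3.69, at percentile 34.3. The step between h and opa was the single break in this order: every other pair of neighbours had overlapping ranges over the 4 libraries. In each library opa came next after h and drm, and sob and run came last, whereas h stood above drm in mutant replicate 1 alone.

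**Figure D1:**
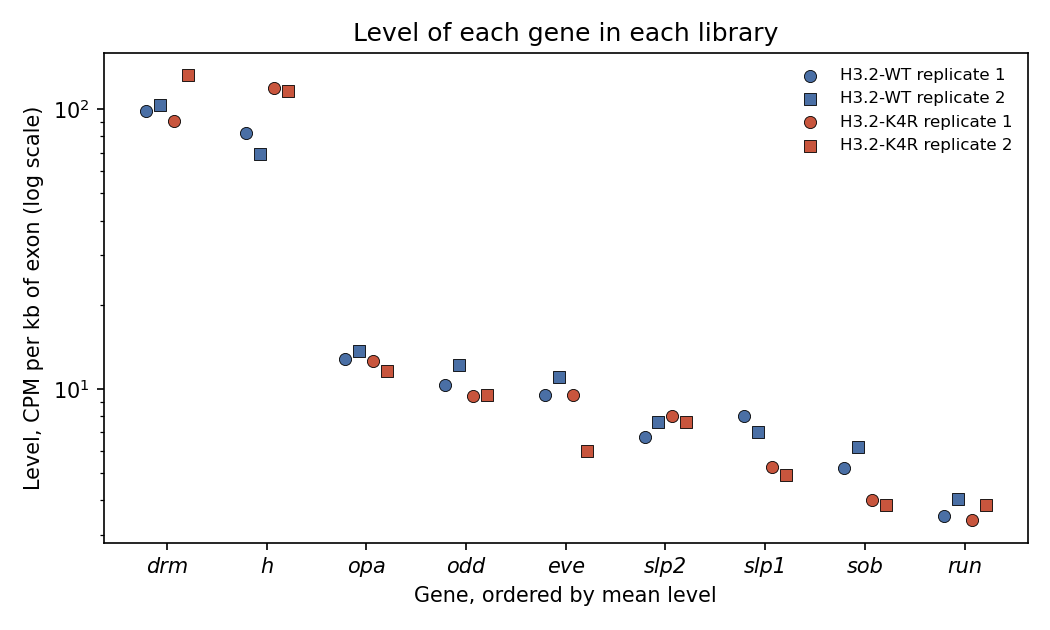
Level of each gene in CPM per kilobase of exon (log scale) in each of the 4 libraries, with H3.2-WT in blue and H3.2-K4R in red, and replicate 1 as circles and replicate 2 as squares. The genes drm and h lie above 69 CPM per kb in every library, and the other 7 lie below 14.

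The other genes of the classical pair-rule set, ftz and prd, were close to the limit of detection at this age. The homeobox gene ftz had 6 and 15 counts in control embryos and 12 and 0 in mutant embryos. The Pax gene prd had 12 and 31 against 36 and 10. On the per-length scale ftz had a mean of 0.110 and prd of 0.199 CPM per kb, at percentiles 0.701 and 2.24 of tested genes. The 7 pair-rule genes of the set were thus all more abundant at 16 to 18 h than the other two, by their mean level per kilobase.

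In the comparison of the groups, none of the 9 genes passed the threshold in either direction (quasi-likelihood test of edgeR with Benjamini-Hochberg adjustment over all genes, threshold 0.05). Over all 11562 tested genes, 0.588% passed, 48 higher (0.415%) and 20 lower (0.173%) in mutant embryos. At an unadjusted p under 0.05 the set had 1 gene higher (h) and 1 lower (sob), against a background of 16.9% of all tested genes, and DESeq2 called 1 gene higher, h (background 3.10%), and 0 lower (2.66%). By sign, 3 genes were above 0 and 6 below, where 48.1% of all tested genes were above 0 and 51.9% below. The median log2 fold change was -0.14, beside -0.02 over all tested genes. The groups did not overlap in 5 of the 9 (h, odd, slp1, opa and sob), where 51.0% of all tested genes do not overlap. That share is near the background.

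The size of difference that these libraries leave possible was limited. The 95% intervals of all 9 fold changes ended below a 2-fold increase, and those of run, odd, slp2, h, opa and drm also excluded a 2-fold decrease. For eve, slp1 and sob the lower bounds reached -1.03, -1.14 and -1.05 on the log2 scale. Standard errors (SE) ran from 0.15 for h to 0.27 for eve, with a median of 0.19, beside 0.25 over all tested genes. These are totals over whole embryos, in which fewer cells of a type and less RNA per cell cannot be told apart.

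**Figure D2:**
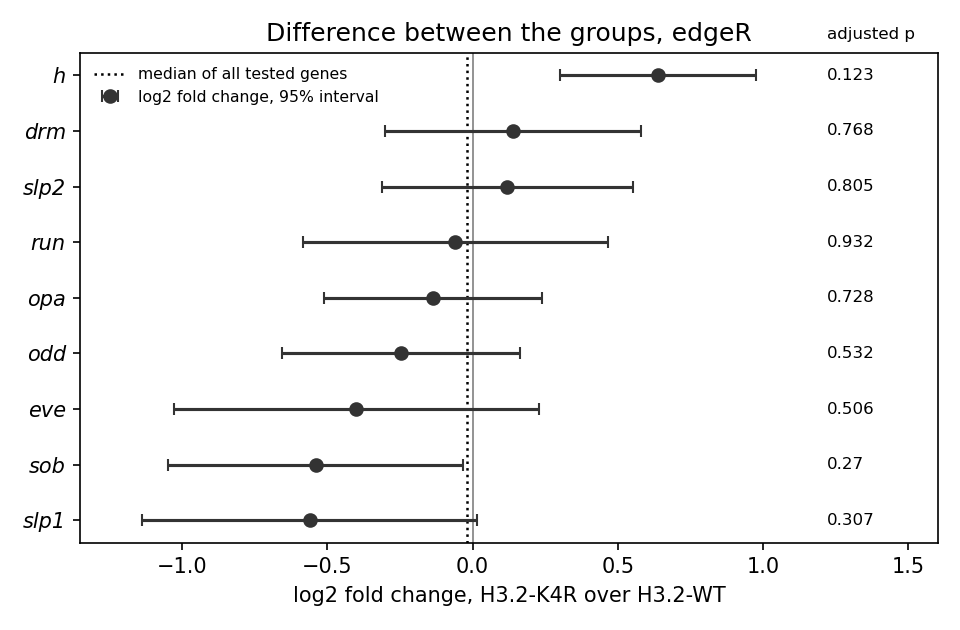
Log2 fold change for each gene, H3.2-K4R against H3.2-WT, (points) with the 95% interval (bars) and the adjusted p at the right, from the edgeR test with 2 libraries per group. The dotted line is the median of all tested genes, -0.02. The interval of h lies above 0 and that of sob below it, but no adjusted p is under 0.05.

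The largest positive fold change belonged to h. The gene (chromosome 3L, 8675759 to 8679253, build dm6; named hry in current annotation) had 192 and 161 CPM in control embryos and 279 and 270 CPM in mutant embryos. Each mutant library was above each control library, and the mutant pair lay closer together (0.05 log2 units apart) than the control pair (0.25). Its log2 fold change was 0.64 ± 0.15 (SE, n = 2 per group; 95% interval 0.30 to 0.98), or 1.56-fold, with an edgeR adjusted p of 0.123, so it was not past the threshold. It passed the threshold in 3 of 11 alternative settings. One was DESeq2 (0.67, adjusted p = 0.00154), with the background given above. Another was edgeR without the filter on low counts (0.65, adjusted p = 0.00379), where 3.26% were called higher. The remaining one was a replicate block (0.64, edgeR adjusted p = 0.000384), where 5.26% were called higher. The fold change was 0.78 without control replicate 1 (edgeR adjusted p = 0.32) and 0.52 without control replicate 2 (adjusted p = 0.568).

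The genes whose profile over the 4 libraries was most like that of h were CG3808, tnc and hipk. Likeness was the Euclidean distance between log2 CPM values centred on each gene's own mean, and these 3 were the nearest of 9303 genes whose log2 CPM averaged 1 or more, at 0.0485, 0.0542 and 0.059 log2 units. A profile of this shape was common, since 134 genes lay within 0.25 log2 units of h. Of the 3, hipk, a protein kinase gene, had 444 and 384 CPM in control embryos and 633 and 611 CPM in mutant embryos (0.59 ± 0.14 log2 units, edgeR adjusted p = 0.134). None of the 3 was past the edgeR threshold, although tnc and hipk passed with DESeq2 (adjusted p = 0.00104 and 0.00165). The distance took in the difference between the groups, so a fold change near that of h follows from how these 3 were chosen. With 4 libraries the likeness describes these libraries only.

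The sloppy paired genes slp1 and slp2 encode forkhead factors and lie next to each other on chromosome 2L (slp1 at 3825675 to 3827099 and slp2 at 3836840 to 3839185, on the + strand, each a single exon), with 9740 bases and no annotated gene between them. slp1 had 11.4 and 10.02 CPM in control embryos and 7.48 and 7.0 CPM in mutant embryos. Each mutant library was below each control library, and the log2 fold change was -0.56 ± 0.25 (SE; 95% interval -1.14 to 0.02; edgeR adjusted p = 0.307). slp2 had 15.8 and 17.8 CPM in control embryos and 18.7 and 17.8 CPM in mutant embryos, groups that overlap, with a log2 fold change of 0.12 ± 0.19 (edgeR adjusted p = 0.805).

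Set against each other within a library, the ratio of slp1 to slp2 per kilobase was 1.19 and 0.926 in control embryos and 0.659 and 0.648 in mutant embryos. The mean log2 ratio was 0.07 in control embryos and -0.61 in mutant embryos, and the groups did not overlap. The smallest p that an exact permutation test (two-sided) allows here is 0.333, so the ratio was not tested. Of all 11551 pairs of adjacent tested genes, 46.9% had ratios whose groups did not overlap and 39.9% differed by at least as much. Among the 4325 pairs whose log2 CPM reached 3, a background chosen after the ratio was seen, these shares were 53.2% and 18.3%. The exon length of slp1 is 1425 bases and that of slp2 2346 bases, and fold changes moved with exon length in these libraries: among genes with log2 CPM above 4, the median log2 fold change was -0.16 for exon lengths between 1000 and 2000 bases and -0.06 between 2000 and 3000 bases. The level of slp1 lay below that cutoff, so slp1 is not among those genes. With the exon-length trend removed, slp1 had -0.38 and slp2 0.19 (edgeR adjusted p = 0.501 and 0.672).

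**Figure D3:**
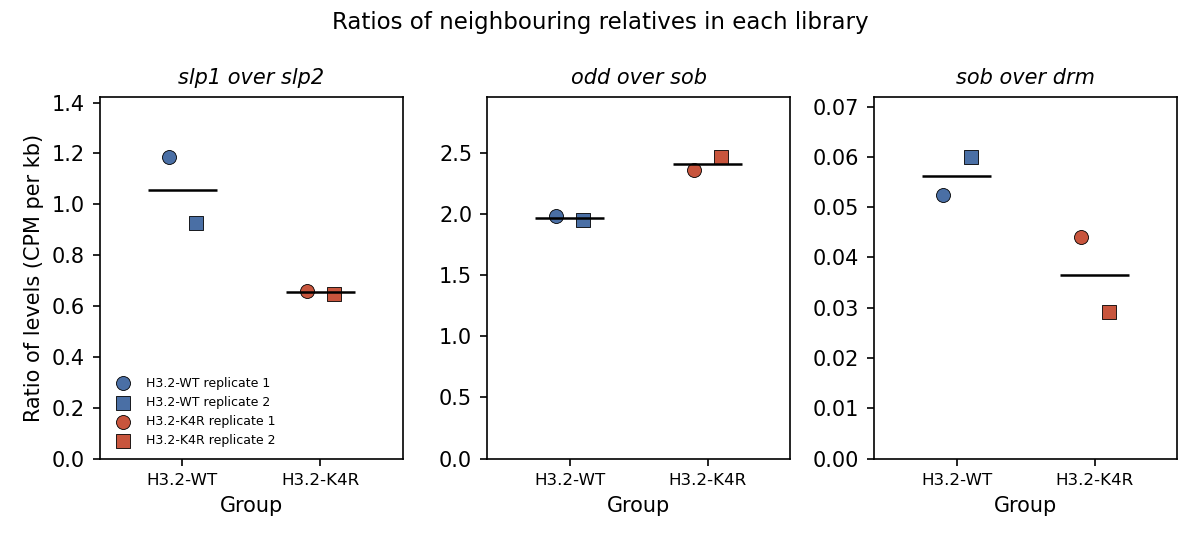
Ratio of levels per kilobase between neighbouring relatives in each library (points; replicate 1 as circles, replicate 2 as squares), with the group mean as a line. The slp1 to slp2 ratio is 1.19 and 0.926 for the H3.2-WT libraries, above the 0.659 and 0.648 of the H3.2-K4R libraries.

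The odd family genes odd, sob and drm encode zinc finger proteins and share a stretch of chromosome 2L: drm (3539247 to 3548423, + strand), sob (3578013 to 3580769, - strand) and odd (3604224 to 3606756, - strand). odd, a repressor gene also expressed in pericardial cells and the lymph gland, had 24.1 and 28.5 CPM in control embryos and 22.1 and 22.3 CPM in mutant embryos. The groups did not overlap, and the log2 fold change was -0.25 ± 0.18 (SE; edgeR adjusted p = 0.532). sob, known for leg joint development together with odd and drm, had 13.6 and 16.2 CPM in control embryos and 10.4 and 10.1 CPM in mutant embryos, with no overlap. Its log2 fold change of -0.54 ± 0.22 (95% interval -1.05 to -0.03) did not pass either (edgeR adjusted p = 0.27).

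For drm the values depended on 1 library. The control libraries had 279 and 291 CPM, mutant replicate 1 had 255 and mutant replicate 2 had 373, so that the mutant libraries lay on either side of control. The log2 fold change was 0.14 ± 0.19 with all libraries (edgeR adjusted p = 0.768). It was -0.16 without mutant replicate 2 (0.739) and 0.38 without mutant replicate 1 (0.149). The order of the family was the same in each library, with drm above odd and odd above sob: odd stood at 1.98 and 1.95 times sob per kilobase in control embryos and at 2.36 and 2.47 times in mutant embryos, while sob was 0.0525 and 0.06 of drm in control embryos and 0.044 and 0.0291 in mutant embryos. The remaining gene of the family, bowl, which lies elsewhere and was named after its values were seen, had 110 and 113 CPM in control embryos and 107 and 97.4 CPM in mutant embryos (-0.13 ± 0.14, edgeR adjusted p = 0.711).

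Most genes that flank the odd and slp clusters and opa had few or no counts, and those beside h, eve and run ranged up to 259. The nearest annotated neighbours of drm, sob and odd are CR44308, CR44309, CG43815, CR43823 and CR44310, and none had more than 11 counts in a library. Next to the slp genes, CR44077 had 0 and 5 counts in control embryos and 21 and 0 in mutant embryos, and CR44983 had 0 in all 4 libraries. Beside opa, CG14659 and laf had 0 counts in all 4 libraries. Beside h, Pex7, which encodes a peroxisomal import receptor, had 185 and 130 counts in control embryos and 225 and 183 in mutant embryos, and CR44526 had 1 and 48 against 58 and 36. Beside eve, CG12134 had 250 and 259 counts in control embryos and 258 and 218 in mutant embryos, and CR45324 had 16 at most. Beside run, CR45610 had 11 and 3 against 18 and 14, and CG1324 had 10 at most. The tested genes among these, Pex7, CR44526, CG12134 and CR45610, did not pass the threshold (edgeR adjusted p = 0.741, 0.734, 0.914 and 0.777).

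The homeobox gene eve (chromosome 2R, 9979319 to 9980795) marks the aCC and RP2 motor neurons and the EL interneurons of the nerve cord, pericardial cells and a dorsal muscle late in embryogenesis. It had 13.4 and 15.5 CPM in control embryos, 13.4 CPM in mutant replicate 1 and 8.44 CPM in mutant replicate 2. Replicate 1 fell within the control range and replicate 2 well below it, a gap of 0.66 log2 units that was the widest between replicates among the 9 genes. The log2 fold change was -0.40 ± 0.27 (edgeR adjusted p = 0.506), -0.11 without mutant replicate 2 and -0.78 without mutant replicate 1. It was -0.23 with the exon-length trend removed (edgeR adjusted p = 0.731). The antisense gene CR43948, which overlaps the start of eve, had 4 counts at most, and the counting used strand.

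Genes of the Eve neuron network were measured beside it: of 8 tested, 0 passed the edgeR threshold (DESeq2 called 0; 1 was higher and 1 lower with p under 0.05 before adjustment), with a median log2 fold change of 0.08. exex, a homeobox gene that Eve represses in motor neurons, had 43.3 and 38.5 CPM in control embryos and 31.4 and 24.2 CPM in mutant embryos (-0.56 ± 0.19, edgeR adjusted p = 0.217). grn, a GATA factor gene of the same motor neurons, had 63.9 and 85.2 CPM against 64.5 and 47.9 (-0.41 ± 0.21), and beat-Ia, an axon guidance gene, 19.5 and 22.3 against 26.8 and 30.4 (0.45 ± 0.18). Both exex and grn, like eve, were lowest in mutant replicate 2, and so was unc-5 (49.8 CPM). The rest of the list went the other way. zfh1 (341 CPM), fra (182), beat-Ia (30.4), Fas2 (444) and Nrg (1197) were highest in mutant replicate 2. Without that library the log2 fold change was -0.38 for exex and -0.21 for grn (edgeR adjusted p = 0.456 and 0.757).

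The Runx gene run (chromosome X, 20690670 to 20697321), also expressed in nerve cord neurons, had the fold change closest to 0. It had 11.004 and 12.7 CPM in control embryos and 10.7 and 12.1 CPM in mutant embryos, with overlapping groups (-0.06 ± 0.23; 95% interval -0.58 to 0.46; edgeR adjusted p = 0.932). opa (chromosome 3R, 4852813 to 4869979) had 37.7 and 40.2 CPM in control embryos and 36.9 and 33.97 CPM in mutant embryos. The groups did not overlap, but the nearest values differed by less than the replicates of either group, and the fold change was -0.14 ± 0.16 (95% interval -0.51 to 0.24; edgeR adjusted p = 0.728).

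**Figure D4:**
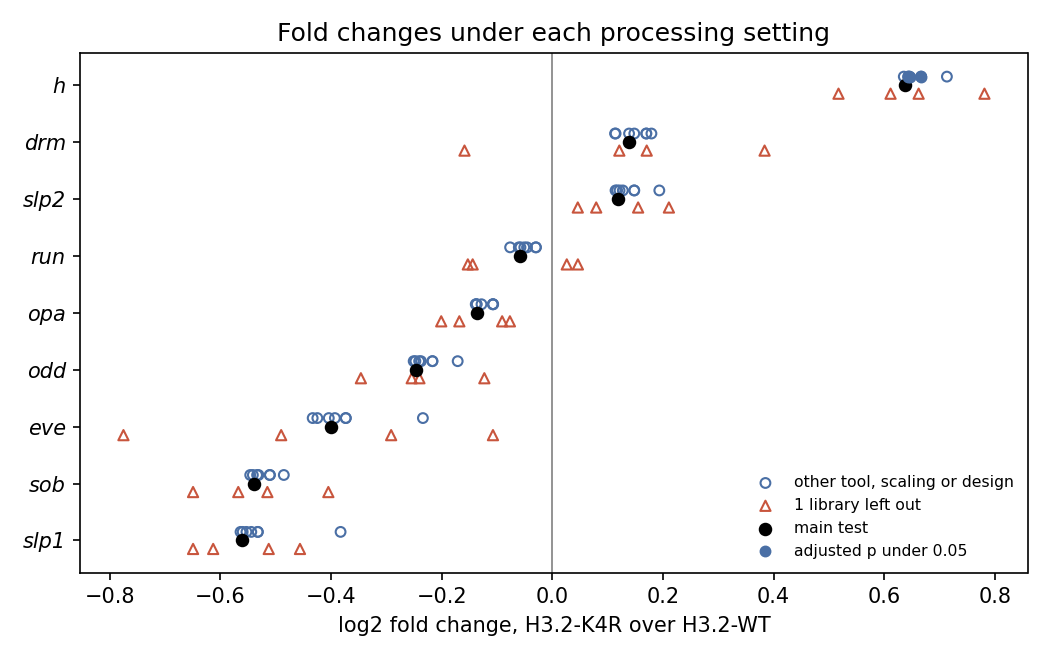
Log2 fold change of each gene in the main test (black), under another tool, scaling or design (blue circles, filled where the adjusted p is under 0.05) and with 1 library left out (red triangles). Values of h stay between 0.52 and 0.78, while those of run and drm lie on either side of 0.

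The rest of the segmentation cascade was read from the same fit. The counts of every list stand beside these shares over all tested genes. Before adjustment 7.68% were higher and 9.20% lower with p under 0.05, and DESeq2 called 3.10% higher and 2.66% lower. Of 12 gap and terminal genes, 0 passed (DESeq2 called 0; 1 was higher and 0 lower with p under 0.05 before adjustment), and the median log2 fold change was -0.10. hb, the zinc finger gap gene that is expressed again in young neuroblasts and neurons, had 9.07 and 9.05 CPM in control embryos and 13.0 and 17.6 CPM in mutant embryos (0.76 ± 0.24, edgeR adjusted p = 0.194). cad, a homeobox gene of the posterior gut, had -0.35 ± 0.15, and nub, a POU factor gene, -0.37 ± 0.21. Without mutant replicate 2 the value was -0.13 for nub and 0.52 for hb. Of 11 segment polarity genes, the targets of pair-rule factors, 0 passed in either direction (0 before adjustment, and 0 called by DESeq2), with a median of -0.08. The T-box gene mid had -0.53 ± 0.24, en -0.45 ± 0.24 and the Pax gene gsb -1.02 ± 0.85 log2 units, with edgeR adjusted p of 0.321, 0.392 and 0.596. Leaving out mutant replicate 2 gave -0.23 for mid, -0.17 for en and -0.48 for gsb, and leaving out mutant replicate 1 gave mid -0.91.

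Genes for protein partners of the pair-rule factors had no call. Of 6 cofactor and corepressor genes 0 passed (0 before adjustment, and 0 called by DESeq2), and all 6 fold changes were above 0, beside 48.1% of all tested genes. The groups did not overlap in 3 of the 6, near the 51.0% of all tested genes. gro, which encodes the corepressor bound by Hairy, had 105 and 101 CPM in control embryos and 117 and 117 CPM in mutant embryos (0.18 ± 0.14), and CtBP 260 and 264 against 281 and 319 (0.20 ± 0.14). With the exon-length trend removed, gro had 0.12 and CtBP 0.08. Bro, a partner of the Runx proteins, had 0 and 12 counts in control embryos and 26 in each mutant library, too few for a firm value. Of 6 relatives from the odd, Runx and Hairy families, 0 passed (DESeq2 called 0; 0 were higher and 1 lower before adjustment). RunxA, a paralog of run, had 7.25 and 7.65 CPM in control embryos and 4.22 and 2.66 CPM in mutant embryos (-1.11 ± 0.35, edgeR adjusted p = 0.194). The neuroblast bHLH gene dpn had 0.67 ± 0.32 and the Runx gene RunxB 0.35 ± 0.24 (0.15 without mutant replicate 2). Leaving out mutant replicate 1 gave RunxA -1.49, and leaving out mutant replicate 2 gave it -0.82.

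Lists for tissues in which the pair-rule genes are expressed late showed no called gene in the edgeR test. Neuronal genes had a median of 0.08 over 8 tested, with 1 higher and 0 lower before adjustment and 1 called by DESeq2, and their summed level was 2463 and 2623 CPM in control embryos and 2777 and 2839 CPM in mutant embryos. Among them Syx1A, a synaptic syntaxin gene, had 0.43 ± 0.14 (edgeR adjusted p = 0.201; 0.0342 with DESeq2), Gad1 -0.26 ± 0.14 and elav 0.29 ± 0.18. With the exon-length trend removed, Syx1A had 0.47, Gad1 -0.28 and elav 0.08. Heart and pericardial genes had a median of -0.26 over 8 tested, with 0 before adjustment, 0 called by DESeq2 and summed levels of 655 and 783 against 704 and 652 CPM. Most of that sum was the gene prc, with 544 and 664 against 587 and 545 CPM. The T-box genes Doc3 and Doc2 had -0.82 ± 0.42 and -0.79 ± 0.54, and the GATA gene pnr -0.31 ± 0.21. Foregut and hindgut genes had a median of -0.06 over 7, with 0 before adjustment and 0 called by DESeq2. byn, the hindgut T-box gene, had -0.47 ± 0.23, otp -0.30 ± 0.16 and fkh 0.14 ± 0.14.

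The 6 visceral mesoderm genes split by sign, 3 above and 3 below 0, and in all 6 the groups did not overlap, beside 51.0% of all tested genes. Before adjustment 2 were higher and 1 lower, beside 7.68% and 9.20% of all tested genes. DESeq2 called 1 higher, beside 3.10%. jeb, a ligand gene for visceral muscle founder cells, had 121 and 109 CPM in control embryos and 215 and 190 CPM in mutant embryos (0.81 ± 0.15, edgeR adjusted p = 0.0683; 1.69e-05 with DESeq2). Fas3, an adhesion gene also expressed in epithelia, had 0.34 ± 0.14, while the forkhead gene bin had -0.64 ± 0.27 (-0.34 without mutant replicate 2, and -1.02 without mutant replicate 1). With the exon-length trend removed, jeb had 0.60, Fas3 0.20 and bin -0.58. Of 8 late cuticle genes, a gauge of embryo age, the median was 0.00, with 1 higher and 1 lower before adjustment and 1 called by DESeq2, and the summed level 3883 and 3962 CPM against 4132 and 3817. Most of that sum came from serp (1648 and 1634 against 1698 and 1712 CPM) and verm (1847 and 1947 against 1997 and 1678 CPM). Whether the groups differed in age was not tested. The tyrosine hydroxylase gene ple had 0.67 ± 0.17 (edgeR adjusted p = 0.138; 0.00653 with DESeq2), the chitin assembly gene rtv -0.85 ± 0.32 and knk 0.33 ± 0.18.

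**Figure D5:**
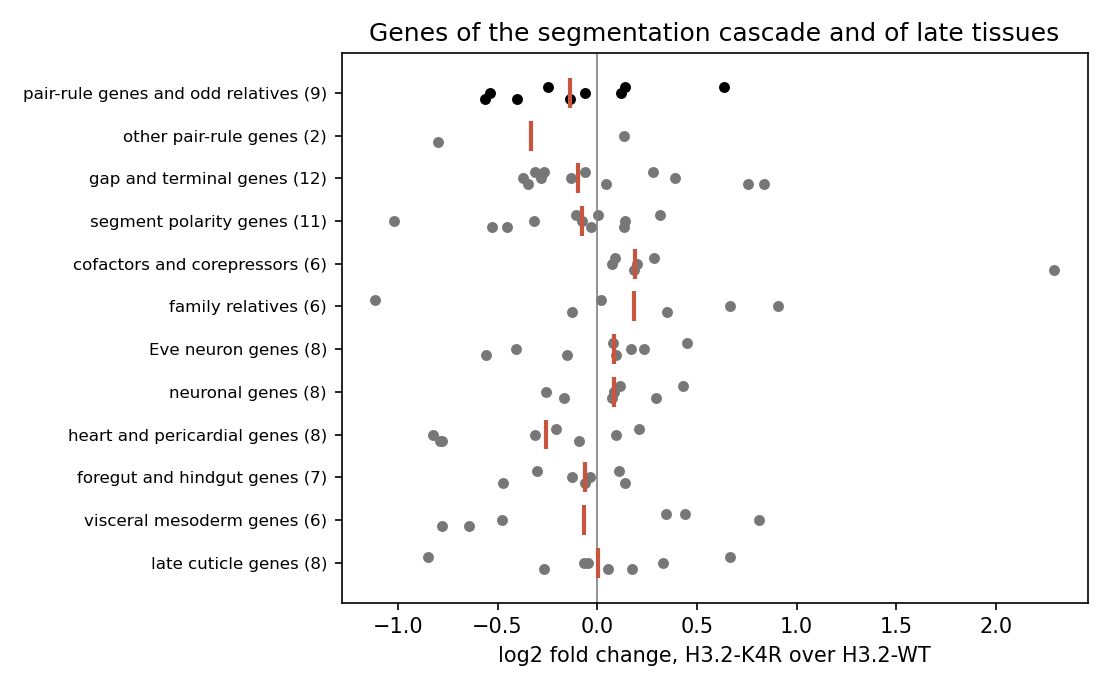
Log2 fold change (H3.2-K4R over H3.2-WT) of each tested gene (points) by list, with the list's median as a red line and the number of tested genes in parentheses. The medians lie between -0.33, for the low-count genes ftz and prd, and 0.19.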

How the data were processed

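The authors deposited raw counts: read pairs assigned to genes with featureCounts 2.0.6, on 1 strand and over exons of a dm6 annotation, per the file headers. Pairs mapping to several places were left out. SAMtools 1.9, STAR 2.7.7a and Subread 2.0.6 are named in the submitters' processing notes. The series has a single wild-type group, so columns called HWT were read as H3.2-WT. The exon lengths deposited by the authors (another column of the table, in bases) gave CPM per kilobase. The coordinates of all 9 genes match Ensembl release 115.

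Counts were tested with edgeR 4.0.16 in R 4.3.3: filterByExpr (minimum count 10, minimum total 15; 11562 of 16727 genes kept), TMM, the quasi-likelihood test with no blocking term, and Benjamini-Hochberg adjustment over all tested genes at 0.05. CPM use TMM library sizes; log2 CPM use a prior count of 2. Alternatives used DESeq2 1.42.0, limma-voom (limma 3.58.1), other scalings, no filter, a replicate block, removal of the exon-length trend and 1 library left out. The tests were tried on simulated counts.

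The members and the 11 other gene lists were chosen with earlier results of these data known. From each list up to 3 genes with the lowest p are named, with all 9 members, their nearest annotated genes and the 3 genes most like the member of lowest p. The genes prc, serp and verm are named for their part in a summed level, and unc-5, zfh1, fra, Fas2 and Nrg for their level in mutant replicate 2. The listed symbol ChAT had no row under that name.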

Additional observations from a re-analysis of the deposited data

How the results depend on the processing

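Log2 fold changes of eve, odd, slp1, slp2, h, opa and sob kept their sign in all 11 alternatives. Leaving out H3.2-WT replicate 2 gave run 0.0462 and leaving out H3.2-K4R replicate 1 gave it 0.0261, and that of drm was -0.16 without H3.2-K4R replicate 2. With 1 library left out, in which the lone sample is assumed to vary like the other group, the ranges were -0.78 to -0.11 for eve, -0.15 to 0.0462 for run, -0.35 to -0.12 for odd, -0.65 to -0.46 for slp1, 0.05 to 0.21 for slp2, 0.52 to 0.78 for h, -0.20 to -0.08 for opa, -0.65 to -0.40 for sob and -0.16 to 0.38 for drm. Of the 9 genes, 1 was called higher with DESeq2, without the filter or with the replicate block, in each case h (0.67, 0.65 and 0.64), and 0 in every fit with 1 library left out, and 0 were called lower in any alternative. The cause was not tested. The count over all genes moved far more: 358 higher and 307 lower with DESeq2, 101 and 72 with limma-voom, 452 and 527 without the filter, 608 and 758 with the replicate block, 75 higher with the exon-length trend removed, and with 1 library left out 1 to 251 higher and 0 to 587 lower.

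No label links same-numbered libraries, and with 2 pairs they were not treated as paired: the correlation of their deviations from the group means was 0.106 over 11562 genes, and whether they share a batch was not tested. The other genes named with a fold change kept their sign in each alternative that gave a value. With the replicate block, 1 gene was called higher in each of the gap and terminal (hb), neuronal (Syx1A), visceral mesoderm (jeb) and late cuticle (ple) lists, and 1 lower in each of the segment polarity (mid), relatives (RunxA) and Eve neuron (exex) lists. DESeq2 called 1 higher in the neuronal (Syx1A), visceral mesoderm (jeb) and late cuticle (ple) lists, the fit without the filter 1 in the last 2 (jeb, ple), and limma-voom 1 (jeb). Without H3.2-K4R replicate 1 the log2 fold changes were 0.96 for hb, 0.72 for jeb, -0.91 for mid, -1.49 for RunxA and -1.02 for bin. Without H3.2-K4R replicate 2 they were 0.52, 0.90, -0.23, -0.82 and -0.34. With 2 libraries per group and SE of 0.15 to 0.27, a gene that did not pass may still differ: h, at 1.56-fold, did not pass in the main test. Whether a 2-fold difference in each of the 9 genes would have passed was not tested.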
